A study of Rattus norvegicus with 3 samples.

Results

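The genes described here handle arginine, nitric oxide, polyamines, itaconate and succinate in macrophages: Nos2, Gch1, Ass1, Asl, Arg1, Arg2, Odc1, Sat1, Acod1 and Sucnr1. They were picked from the table by gene symbol, with older names accepted. No value of theirs entered that rule, but the list was drawn up with earlier results of these data known. All 10 were found, through 11 probes, among 15924 named genes on the array. Acod1 is listed by the array under its older name Irg1, Odc1 had 2 probes, and the other members had 1 probe each.

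The cells were NR8383, an established line of rat alveolar macrophages, the phagocytes of the lung surface. Cultures were exposed for 24 h to 0.1 mg/mL of CNT-1 or of CNT-2, both of them single-wall carbon nanotubes described as impurity-free, in a working solution with 1 mg/mL bovine serum albumin. The control is labelled both as untreated and as a solvent control with albumin, so whether it received albumin is not settled. The labels do not describe how CNT-1 and CNT-2 differ. RNA was measured on 1-colour Agilent arrays, and the values file holds 1 column per group: control, CNT-1 and CNT-2.

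Arginine stands at a branch point in macrophages. Inducible nitric oxide synthase turns it into nitric oxide and citrulline, whereas arginase turns it into urea and ornithine, from which polyamines are made. Itaconate is made from a citrate cycle intermediate in activated macrophages and inhibits succinate dehydrogenase, and extracellular succinate is sensed by the receptor Sucnr1.

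The deposited values are differences on a log scale, presumed to be base 2, around a baseline set for each probe that is none of the 3 columns. They carry no expression level, so no gene is set against another by abundance, and the files do not show whether a probe was above background. With 1 column per group no test between conditions was possible, no p-value is given, and "higher" and "lower" describe these columns only. Genes at least 1 log2 unit apart, which is 2-fold on base 2, were counted.

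In the CNT-2 column 6 of the 10 members were at least 2-fold higher than in the control (Acod1, Nos2, Arg1, Gch1, Sat1 and Odc1), 1 was at least 2-fold lower (Sucnr1), and 3 were within 2-fold (Asl, Arg2 and Ass1). Of all named genes, 10.1% passed that threshold on the higher side and 6.56% on the lower side. The median of the members was 1.40, against 0.041 over all named genes. In the CNT-1 column none of the 10 members was past 2-fold in either direction, where 1.16% of all named genes were higher and 2.15% lower, and the median of the members was 0.19 against -0.043.

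**Figure D1:**
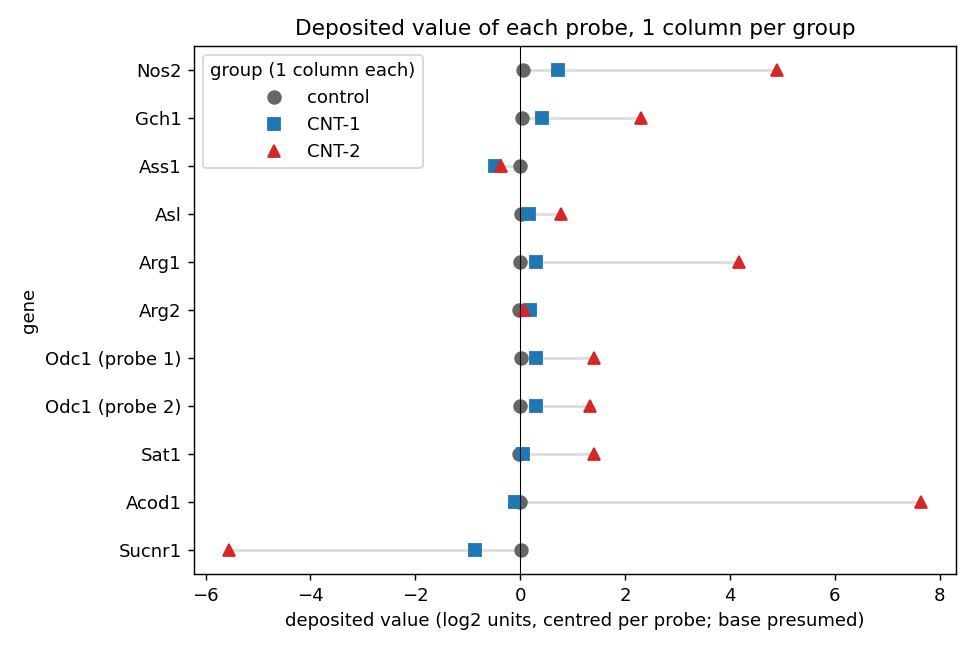
Deposited value of each member's probe (horizontal axis, log2 units centred per probe, base presumed) in the control, CNT-1 and CNT-2 columns, 1 point per probe and column. The control points lie close to 0 and the CNT-1 points between -0.87 and 0.72, whereas the CNT-2 points run from -5.56 for Sucnr1 to 7.64 for Acod1.

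Some facts of the arrays move with these values. Against control, the 10 probes for RNA added to each sample (spike-ins) lay at 0.23 ± 0.10 in CNT-2 and at -0.046 ± 0.073 in CNT-1 (SD over the 10). Centring the columns on the 75th percentile moved the median of all named genes in CNT-2 minus control from 0.041 to -0.28, and centring on the spike-in probes moved it to -0.18. The higher genes made up 60.7% of all named genes past 2-fold in CNT-2, 34.9% after centring on the 75th percentile and 42.1% after centring on the spike-in probes. In CNT-1 they made up 35.0%, and 49.7% after quantile normalization. As deposited, the SD over all probes was 0.16 in the control, 0.40 in CNT-1 and 0.85 in CNT-2. Quantile normalization gives the columns 1 common spread, so large CNT-2 differences shrink under it by construction. Members that crossed a threshold or changed sign under these scalings are named beside their values.

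The label of the cells was set against macrophage markers. Of 16 such markers 15 were measured. Because the values are centred, their presence or absence could not be read. In CNT-2 the integrin subunit Itgam was at 3.46 and the fatty acid binding protein Fabp4 at 3.96 against control, whereas the Fc receptor Fcgr1a was at -2.56 ± 0.61, the mannose receptor Mrc1 at -2.24 ± 0.13 and the growth factor receptor Csf1r at -1.25 ± 0.60 (SD over 2 probes each), and the other 10 markers were within 2-fold. Itgam was also past 2-fold in CNT-1, at 1.02. Of 26 markers of other lung and blood cells 25 were measured, with 2 higher and 3 lower in CNT-2. These are 8% and 12% of the measured ones, beside 10.1% and 6.56% of all named genes. The higher ones were Dcn of fibroblasts at 2.56 and Krt18 of epithelium at 1.34 ± 0.52, and the lower ones Vwf of endothelium at -1.73 ± 1.66 (SD over 2 probes each), Nkg7 of T and NK cells at -1.67 and Cd79a of B cells at -1.37. In CNT-1 Epcam of epithelium was at 1.61 and Elane of neutrophils at -1.20, and the other 23 were within 2-fold, with Dcn at 0.98. The cells were an established line, so the cell type given with a marker names the gene and does not show such cells. Whether a difference lay in all cells or in some cannot be read from bulk RNA. The part of these markers in the members' values was not tested.

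Genes of nitric oxide synthesis were above control in CNT-2, both the enzyme itself and the first enzyme of its cofactor. Nos2, the inducible nitric oxide synthase, was at 0.045 in the control, 0.72 in CNT-1 and 4.90 in CNT-2. The CNT-2 column is the high one, and CNT-1 lies between it and the control. CNT-1 differed from control by 0.68 and CNT-2 by 4.85, which is 28.8-fold on base 2, and 41 of the 15924 named genes had a larger positive difference in CNT-2. Gch1, the GTP cyclohydrolase that begins the synthesis of the synthase cofactor tetrahydrobiopterin, was at 0.037, 0.41 and 2.30 in the same order. It differed from control by 0.37 with CNT-1 and by 2.27 with CNT-2, again with CNT-1 in between. After quantile normalization the CNT-2 differences were smaller, at 2.52 for Nos2 and 1.24 for Gch1.

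Most other genes of this branch were within 2-fold in CNT-2. Of 18 measured genes for the other synthases, tetrahydrobiopterin, nitric oxide signalling and the handling of nitric oxide and oxidants, 1 was at least 2-fold higher and 1 lower in CNT-2, with a median of -0.083. Each is 5.56% of the list, beside 10.1% and 6.56% of all named genes. The higher one was Nos3, the endothelial nitric oxide synthase, at 0.069 in the control, 1.25 in CNT-1 and 3.73 in CNT-2. It was also the gene of this list past 2-fold in CNT-1, at a difference of 1.19. The lower one was Gucy1b1, a subunit of the guanylate cyclase that senses nitric oxide, at a difference of -1.61 in CNT-2 and -0.030 in CNT-1, where the sign turned to 0.029 with median centring. The later enzymes of tetrahydrobiopterin synthesis, Pts at -0.18 and Spr at -0.20 ± 0.080 (SD over 2 probes), and the Gch1 feedback regulator Gchfr at -0.17, were within 2-fold in CNT-2. The neuronal synthase Nos1 was at 0.064, and -0.25 after centring on the 75th percentile.

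Both arms that use arginine therefore had a member far above control in CNT-2, since Arg1 was high as well. Arg1, the cytosolic arginase, was at -0.011 in the control, 0.31 in CNT-1 and 4.18 in CNT-2. CNT-1 differed from control by 0.32 and CNT-2 by 4.19, or 18.3-fold on base 2, and 72 named genes had a larger positive difference in CNT-2. With quantile normalization Arg1 was at 2.44 in CNT-2. Arg2, the mitochondrial arginase, stayed near its control value of -0.026, with 0.20 in CNT-1 and 0.075 in CNT-2. Its difference of 0.10 in CNT-2 turned to -0.22 with 75th percentile centring and to -0.12 with spike-in centring.

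The enzymes that rebuild arginine from citrulline were within 2-fold in both columns. Ass1, the argininosuccinate synthase, was at -0.004 in the control, -0.48 in CNT-1 and -0.37 in CNT-2. It was thus below control with both nanotubes, at differences of -0.48 and -0.36. Asl, the lyase that completes the step, was at 0.016, 0.17 and 0.77, so that its difference was 0.76 in CNT-2 and 0.16 in CNT-1. On either side of control, neither gene of this recycling pair came near the differences of Nos2 and Arg1.

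Carriers of arginine lay on both sides of control in CNT-2. Of 27 measured genes for arginine transport, the urea cycle and amino acids derived from arginine, 5 were at least 2-fold higher and 4 lower in CNT-2, with a median of 0.099, which became -0.22 with 75th percentile centring. As shares of the list these are 18.5% and 14.8%, beside 10.1% and 6.56% of all named genes. The cationic amino acid carriers Slc7a1 and Slc7a2 and the exchanger subunit Slc7a6 were at 1.67 ± 0.38, 1.42 ± 0.045 (SD over 2 probes each) and 1.75, with CNT-1 at 0.11, 0.54 and 0.19. The exchanger subunit Slc7a7 was at -0.53 and the carrier Slc7a3 at 0.025 in CNT-2, the latter -0.29 with 75th percentile centring. Gatm, which uses arginine to make the creatine precursor, was at 1.74 and the asparagine synthetase Asns at 1.23. Gamt, the next enzyme of creatine synthesis, was on the opposite side at -1.13 ± 0.028 (SD over 2 probes). The glutamine synthetase Glul was at -1.78 ± 0.65 (SD over 2 probes), and Aldh4a1, of proline breakdown, at -1.08. Slc7a2, Slc7a7, Asns and Aldh4a1 were named after their values were seen. In CNT-1 Slc7a3 was at 1.01. Nags, which makes the activator of the first urea cycle enzyme, was at -1.25 in CNT-1 and -1.19 in CNT-2.

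**Figure D2:**
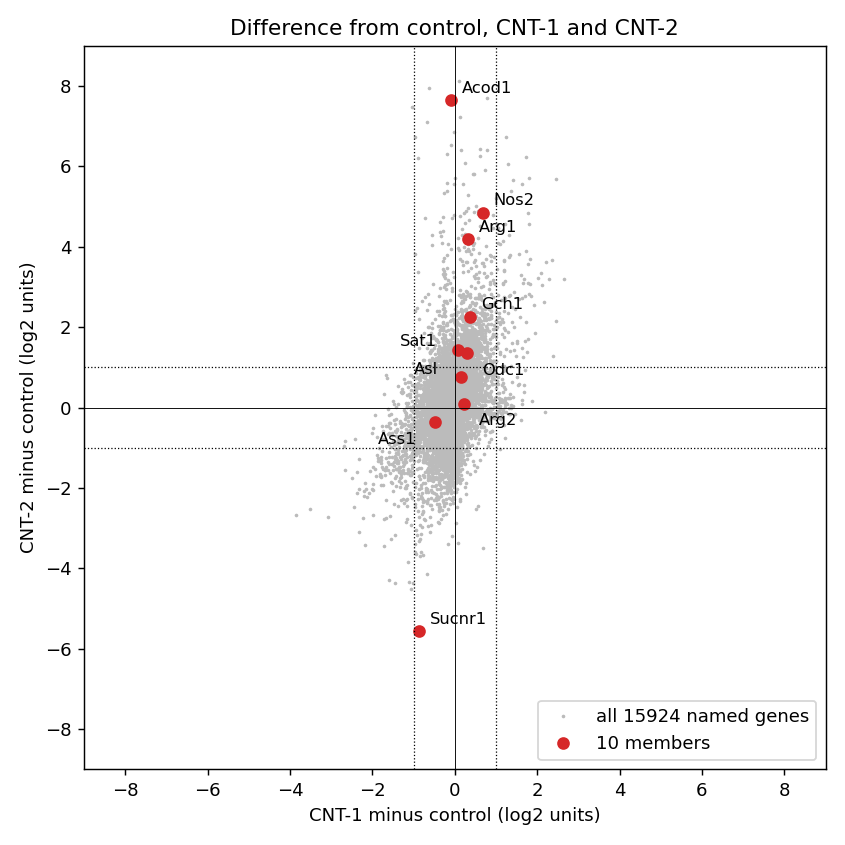
Difference from control in CNT-1 (horizontal axis) and CNT-2 (vertical axis), both in log2 units, for the 15924 named genes (grey) and the 10 members (red), with dotted lines at 1 log2 unit. The members spread from -5.57 to 7.65 on the vertical axis and from -0.88 to 0.68 on the horizontal axis, and both axes share the control column.

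The polyamine members Odc1 and Sat1 were above control in CNT-2 by smaller amounts. Odc1, the ornithine decarboxylase that begins polyamine synthesis, was measured by 2 probes, at 0.019 and -0.010 in the control, 0.31 and 0.31 in CNT-1, and 1.41 and 1.32 in CNT-2. The probes lay close together in every column, with a difference of 0.30 ± 0.023 for CNT-1 and 1.36 ± 0.039 for CNT-2 (SD over 2 probes). Sat1, the acetyltransferase that marks polyamines for export and breakdown, was at -0.027 in the control, 0.053 in CNT-1 and 1.41 in CNT-2. Its difference was 0.080 in CNT-1 and 1.44 in CNT-2, so the enzyme that opens synthesis and the one that opens breakdown lay at like distances above control in CNT-2. Odc1 was at 0.78 in CNT-2 after quantile normalization, within 2-fold, and Sat1 at 1.02.

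Around them, 2 of 24 measured polyamine genes were at least 2-fold higher and 1 was lower in CNT-2, with a median of -0.019, or 0.070 after quantile normalization, and none was past 2-fold in CNT-1. The CNT-2 counts are 8.33% and 4.17% of the list, beside 10.1% and 6.56% of all named genes, so neither share is above that of the array. Azin1, the antizyme inhibitor that protects ornithine decarboxylase, was at 1.36 ± 0.34 (SD over 2 probes) and the antizyme Oaz2 at 1.11. Mtap, which salvages the methylthioadenosine left by polyamine synthesis, was at -1.23. The aminopropyl transferases that follow Odc1 were within 2-fold, with Srm at -0.31 and Sms at 0.24, the latter -0.074 after centring on the 75th percentile. Amd1, which supplies their aminopropyl groups, was at -0.15 ± 0.41 (SD over 2 probes), and at 0.065 after quantile normalization.

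The members furthest from control on either side were those of itaconate and succinate. Acod1, the decarboxylase that makes itaconate, was at -0.008 in the control, -0.094 in CNT-1 and 7.64 in CNT-2. The CNT-2 column alone is high, whereas CNT-1 lies next to the control at a difference of -0.086, which turned to 0.092 with quantile normalization. The difference in CNT-2 was 7.65, or 200.9-fold on base 2, and 3 of the named genes had a larger one. Sucnr1, the receptor for extracellular succinate, was at 0.007 in the control, -0.87 in CNT-1 and -5.56 in CNT-2. Both nanotube columns were on the lower side, at a difference of -0.88 in CNT-1 and -5.57 in CNT-2, and no named gene was lower than Sucnr1 in CNT-2 minus control. After quantile normalization Acod1 was at 4.17 and Sucnr1 at -3.40, with 5 genes above the former and 4 below the latter.

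The citrate cycle enzymes that supply Acod1 or handle succinate were close to control. Of 31 measured genes of the cycle and of the transport and breakdown of its acids, 3 were at least 2-fold higher and 1 was lower in CNT-2, with a median of 0.20, which became -0.11 with 75th percentile centring. Those counts are 9.68% and 3.23% of the list, beside 10.1% and 6.56% of all named genes, so neither share is above that of the array. None was past 2-fold in CNT-1. The higher ones were all carriers: Slc13a3, a plasma membrane carrier of dicarboxylates such as succinate, at 2.82, Slc13a5, a citrate carrier, at 2.56, and Slc25a1, the mitochondrial citrate exporter, at 1.498. In CNT-1 they were at -0.65, -0.29 and 0.97. Clybl, a mitochondrial lyase that acts in the breakdown of itaconate, was at -1.12 in CNT-2 and -0.037 in CNT-1, or 0.022 with median centring. The succinate dehydrogenase subunits were at -0.28 for Sdha, 0.30 for Sdhb, -0.17 for Sdhc and -0.46 for Sdhd in CNT-2. Of these Sdhb turned to -0.013 with 75th percentile centring.

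**Figure D3:**
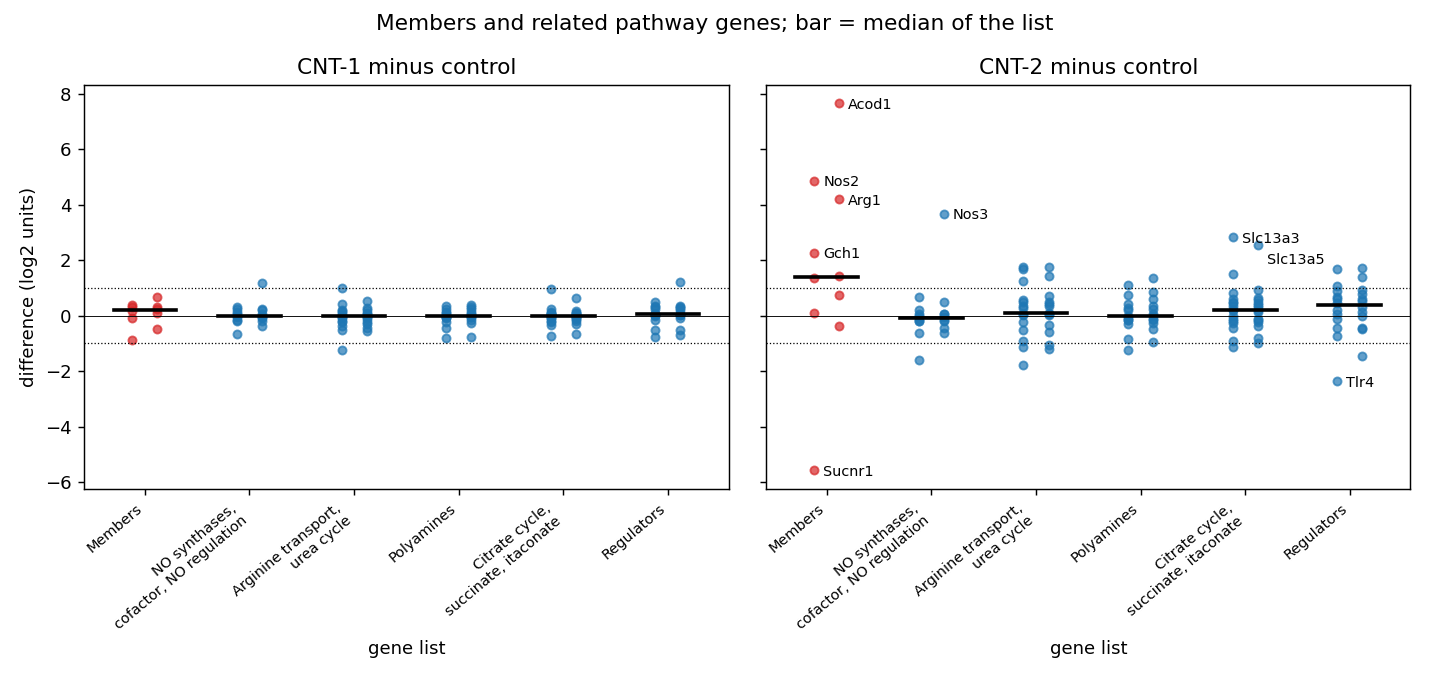
Difference from control in log2 units (vertical axis) for the 10 members (red) and the genes of 5 related lists (blue), CNT-1 on the left and CNT-2 on the right, with bars at the list medians and dotted lines at 1 log2 unit. In CNT-2 the members have a median of 1.40 and the lists medians between -0.083 and 0.39, and Nos3 at 3.66 is the list gene furthest from control.

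Regulators named in textbooks for Nos2, Acod1 and the arginases were also read. Of 24 measured, 4 were at least 2-fold higher and 2 lower in CNT-2, with a median of 0.39. That is 16.7% and 8.33% of the list, beside 10.1% and 6.56% of all named genes. The NF-kappaB subunit Rel was at 1.72 and the stress response factor Atf4 at 1.70. Tlr2, a Toll-like receptor for bacterial lipoproteins, was at 1.41 and the transcription factor Egr2 at 1.07. The endotoxin receptor Tlr4 was at -2.37 and the transcription factor Myc at -1.46. The gene of this list past 2-fold in CNT-1 was Epas1, a hypoxia-inducible factor subunit, at 1.21, with 0.003 in CNT-2. Egr2 was named after its value was seen.

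The direct comparison of CNT-2 with CNT-1, both at 0.1 mg/mL for 24 h, gave the same 6 members at least 2-fold higher and the same 1 lower, beside 9.32% and 4.65% of all named genes. Both comparisons of CNT-2 share its column. The median of the members was 1.21, against 0.15 over all named genes. Acod1 was at 7.74, Nos2 at 4.18, Arg1 at 3.87, Gch1 at 1.89, Sat1 at 1.36 and Odc1 at 1.06 ± 0.062 (SD over 2 probes), whereas Sucnr1 was at -4.69. Within 2-fold were Asl at 0.60, Arg2 at -0.12 and Ass1 at 0.11, which turned to -0.21 with 75th percentile centring. Odc1 came within 2-fold under each centring, at 0.95 on the median, 0.73 on the 75th percentile and 0.79 on the spike-ins, which leaves 5 higher members. With quantile normalization Odc1 at 0.27, Gch1 at 0.77 and Sat1 at 0.63 were within 2-fold, which leaves 3. Of all named genes past 2-fold 66.7% were higher, or 37.7% with 75th percentile centring, 42.4% with spike-in centring and 56.7% with median centring.

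**Figure D4:**
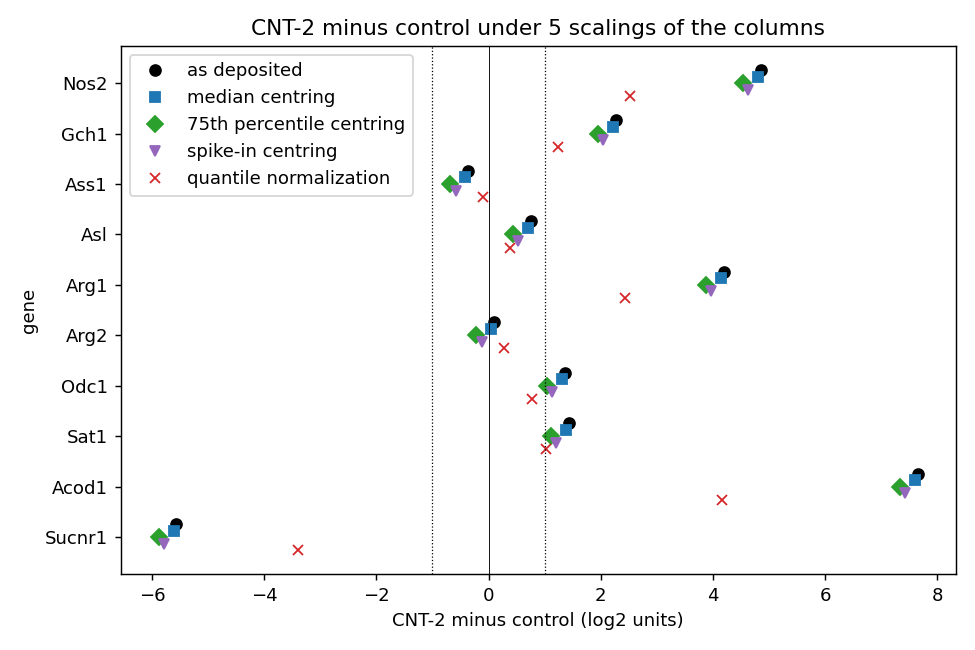
CNT-2 minus control in log2 units (horizontal axis) for each member as deposited and under 4 other scalings of the columns, with dotted lines at 1 log2 unit. Acod1, Nos2, Arg1, Gch1 and Sat1 stay above 1 and Sucnr1 below -1 under all 5, whereas Odc1 is at 0.78 with quantile normalization and Arg2 changes sign.

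The genes closest to each member were read from the distance between the pairs of differences against control, over 3 columns. With so few columns a small distance is easily met. Acod1 was nearest to Sytl3 at a distance of 0.47 and to the natriuretic peptide gene Nppb at 0.51. Nos2 was nearest to Slc35e4 at 0.11 and Ptx4 at 0.12, and Arg1 to Jsrp1 at 0.12 and Nupr1 at 0.15. Sucnr1 had no close neighbour, the nearest being Clec2l at 1.07 and Gys2, a glycogen synthase, at 1.21. This restates its place as the lowest gene in CNT-2 minus control, at -5.567. The next lowest, Clec2l, was at -4.515. The nearest genes were Fmr1nb and Irak2 to Gch1, Ccng1 and Zeb1 to Odc1, and Jag2 and Usp6nl to Sat1, at distances of up to 0.045.

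Promoter sequences from RefSeq, build GRCr8, were matched for 7 members by symbol: Acod1, Asl, Ass1, Gch1, Odc1, Sat1 and Sucnr1. The 250 bases before the start are shown for the members furthest from control on each side, Acod1 and Sucnr1, and for Gch1 as a member of the nitric oxide branch, 5′ to 3′ on the strand of the gene. Capitals mark matches to the motifs given below. The windows are chr15:86286289-86286538 on the plus strand for Acod1, chr2:146368608-146368857 on the plus strand for Sucnr1 and chr15:22917413-22917662 on the minus strand for Gch1.
Acod1: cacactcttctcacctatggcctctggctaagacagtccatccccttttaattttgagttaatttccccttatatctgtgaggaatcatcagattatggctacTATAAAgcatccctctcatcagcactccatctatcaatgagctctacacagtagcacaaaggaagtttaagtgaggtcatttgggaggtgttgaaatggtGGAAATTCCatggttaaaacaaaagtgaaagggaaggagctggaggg
Sucnr1: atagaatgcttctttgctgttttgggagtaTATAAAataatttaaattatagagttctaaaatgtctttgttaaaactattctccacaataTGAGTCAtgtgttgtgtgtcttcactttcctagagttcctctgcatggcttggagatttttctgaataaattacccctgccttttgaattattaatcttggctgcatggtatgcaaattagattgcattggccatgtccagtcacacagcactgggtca
Gch1: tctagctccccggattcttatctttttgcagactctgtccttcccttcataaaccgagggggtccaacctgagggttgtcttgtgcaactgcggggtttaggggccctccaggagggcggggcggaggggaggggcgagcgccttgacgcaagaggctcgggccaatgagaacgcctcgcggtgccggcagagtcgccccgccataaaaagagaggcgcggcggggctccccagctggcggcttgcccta

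These windows differed in base composition. Over the 300 bases from 250 before to 50 after the start, Acod1 had 44.0% G and C with 0 CpG dinucleotides and Sucnr1 39.0% with 1, whereas Gch1 had 63.3% with 22. Among the other members Odc1 had 77.3% with 47, Asl 60.3% with 22, Sat1 53.3% with 14 and Ass1 51.0% with 6. For each gene 1 promoter entry was used, and its start need not be the first base of the gene. The upstream part of the Ass1 window ends at chr3:35149729, inside the gene, which begins at 35144765. Those of Odc1, Asl and Acod1 also end past the first base of the gene. The median over 27457 promoters of that length was 52.3% with 7. Among these 7, the members with the largest difference in each direction in CNT-2 thus had windows poorer in CpG than the median, as did Ass1, which was within 2-fold.

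Motifs were searched as exact letters on both strands of the 300 bases. The NF-kappaB consensus, and the same consensus with 1 base allowed to vary, were held by 0.095% and 0.37% of all promoters and by none of the 7. The AP-1 sequence TGACTCA, held by 4.53%, was in Sucnr1, from 159 to 153 bases before the start on the opposite strand. The hypoxia element ACGTG, held by 19.7%, was in Asl and Odc1, and the antioxidant element TGACNNNGC, held by 12.2%, in Odc1. The E-box CACGTG, which contains the hypoxia element and was held by 6.65%, the interferon-stimulated response element (3.77%), the C/EBP sequence TTGCGCAA (0.20%) and the amino acid response element TGATGCAAT (0.19%) were in none. After the sequences were read, GGAAATTCC, a pair of NF-kappaB half-sites, and TATAAA were searched too. The former, held by 0.33%, was in Acod1 from 47 to 39 bases before the start, and the latter, held by 14.3%, in Acod1, Ass1 and Sucnr1. A match describes these letters and does not show a site in use.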

How the data were processed

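The deposited table gave 1 value for each of 41103 probes in each of 3 columns. Per the submitters' processing notes, Agilent Feature Extraction 10.7.3.1 was used on the scans. The deposited values are log2 differences, with base, centring and direction presumed from the values themselves. Their range was -5.71 to 8.82, with column medians of 0.014 (control), -0.045 (CNT-1) and 0.064 (CNT-2). How arrays were normalized is not stated in the labels. The design text gives an n of 4 and the labels of all groups carry replicate number 4. It is not settled if a column holds a single array or an average, so each counted as 1 value without replicates.

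Probes were named through the platform annotation, which gave 1 symbol for 20932 probes, several for 0 and none for 20171. RefSeq accessions (assembly GRCr8) named 17415, a current symbol 3113 and an older symbol 396, and 8 stayed unmatched. Probes of a gene were averaged, computed in Python 3.11.15 with pandas 2.3.3 and tested on simulated data. An SD over probes is technical. The number of arrays limits all precision. No gene was filtered out, and no test or p-value was calculated.

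The members and lists were chosen with earlier results of these data known. All members are named. From each pathway list the 3 genes furthest from control in CNT-2 on each side past 1 log2 unit are named, and any gene past it in CNT-1. Further genes were named after their values were seen, and by their role in the pathway. For members past it in CNT-2, the 2 nearest genes are named. The alternatives were 4 scalings, 2 other ways to join probes, no probes within 0.02 of the negative control, platform symbols as given, a threshold of 1.5 and the natural log. Without the probes near the negative control 13715 named genes were left. Because values are centred per probe, nearness to that control does not mark a probe at background.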

Additional observations from a re-analysis of the deposited data

How the results depend on the processing

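Counts and medians of the members in the 3 comparisons were recomputed under each alternative, 84 values in all. Of these 75 stayed within 1.5 times the count, or within the median SD over the probes of a gene for a median, and 9 moved. Part of the 75 could not move. Odc1 alone had 2 probes, so the median over probes changed no member, and the probe with the smallest difference could change Odc1 alone. Leaving out probes near the negative control, at 0.157 in the control column, removed no member's probe. Those settings are no check on the members. In CNT-1 minus control the median moved from 0.19 to 0.43 with quantile normalization, and Sucnr1 made the count of lower members 1 with the natural log. In CNT-2 minus control the median moved from 1.40 to 1.08 with 75th percentile centring, 0.90 with quantile normalization and 1.17 with spike-in centring. In CNT-2 minus CNT-1 it moved from 1.21 to 0.88, 0.47 and 0.94 under the same scalings, and the count of higher members from 6 to 3 with quantile normalization, which forces columns of unequal spread onto 1 distribution. No member past 2-fold changed sign under any alternative. Under platform symbols as given Acod1 is missing, since the array lists it by its older name. A threshold of 1.5 left 4 higher members and 1 lower in both comparisons of CNT-2. With the natural log, CNT-2 minus control had 7 higher members.

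Counts over all named genes changed by more than 1.5 times in several settings. In CNT-1 minus control the 184 higher and 342 lower genes became 586 and 592 with quantile normalization, 52 and 97 at a threshold of 1.5, and 435 and 752 with the natural log. In CNT-2 minus control the 1616 and 1045 became 989 and 1844 with 75th percentile centring, 863 and 544 with quantile normalization, 771 and 431 at 1.5, and 2660 and 1813 with the natural log. In CNT-2 minus CNT-1 the 1484 and 740 became 838 and 1385, 436 and 331, 649 and 243, and 2594 and 1328 in the same order. Spike-in centring gave 1139 and 1565 and then 915 and 1245 in the comparisons of CNT-2. No paired analysis was possible because each group has 1 column. No replicate could be left out for the same reason, and the planned comparison of protein sequences was not run.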
